A study of Mus musculus with 41 samples.

Results

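Replication-dependent histone genes were examined for 4 histone modifications in 8 mouse cell types. The genes were the protein-coding genes whose GENCODE symbol begins with Hist1h, Hist2h, Hist3h or Hist4h, which are 67 of the 21755 protein-coding genes on chromosomes 1 to 19 and X. A gene was called for a mark when a peak overlapped, by at least 1 bp, the 1001-bp window reaching 500 bp to either side of any of its annotated transcription start sites (TSS). The rule used gene names only and no measured value.

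These genes encode the linker histone H1 and the core histones H2A, H2B, H3 and H4 that package newly copied DNA. They lack introns, end in a stem-loop instead of a poly(A) tail, and are transcribed mainly in S phase at nuclear histone locus bodies, where NPAT is a shared coactivator. Cells that have left the cycle rely largely on replication-independent variants such as H3.3, and a few members of the family are used mainly in male germ cells.

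The modifications were profiled by CUT&Tag, in which an antibody guides a transposase to cut DNA beside the modified histone. Lactylation of histone H3 lysine 18 (H3K18la) was measured in all 8 cell types, H3K27me3 (repressed chromatin) in 7, H3K27ac (active promoters and enhancers) in 5 and H3K4me3 (active promoters) in 4. The 41 samples gave 24 peak lists, of which 17 merge 2 samples before peak calling and 7 come from 1 sample, so no list has a replicate error. The lists from 1 sample are H3K18la and H3K27me3 of MB, all 3 lists of BMDM, and H3K27ac of mESC-ser and PIM, so MB, 1 of the 3 cycling values for H3K18la, rests on 1 sample. Intervals below are 95% Wilson intervals, cover counting error only, and treat the genes as separate although neighbours share peaks.

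The dividing cultures were embryonic stem cells of the E14 line in serum and LIF (mESC-ser) or in 2i and LIF (mESC-2i), which were processed as whole cells, and primary C57BL/6 myoblasts (MB) in growth medium. The postmitotic samples were myotubes (MT) after 3 days of differentiation, whole gastrocnemius muscle (GAS) of mice aged 8 to 12 weeks, and white adipocytes (ADIPO) of AdipoCre-NuTRAP mice aged 10 weeks, whose nuclei carry a tag driven by an adipocyte Cre. Beside them stood 2 macrophage samples, bone marrow-derived macrophages (BMDM) grown for 7 days with M-CSF and post-ischemia macrophages (PIM) sorted from calf muscle of mice of the same age range 2 days after artery ligation. The paper describes the myotubes as post-mitotic and gives no division state for GAS and ADIPO, which were placed in that group here. The division state of neither macrophage sample is given, so the macrophages were left out of the main contrast. All samples other than the stem cells were nuclei, all mouse tissue and primary cells are labelled C57BL/6 (C57Bl6/J for the mice aged 8 to 12 weeks in the study's methods), and the labels name no treatment other than control. GAS holds every nucleus of the tissue, so fibres and other cells cannot be told apart there.

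The Hist1 genes lie on chromosome 13 in a first stretch of 23 genes (mm10 chr13:21715763-22043676) and a second stretch of 31 genes (chr13:23531050-23934851), 1487 kb apart. Hist2 holds 10 genes on chromosome 3 (chr3:96219865-96270132), Hist3 holds Hist3h2a and Hist3h2ba on chromosome 11 (chr11:58948920-58956830), and Hist4h4 stands alone on chromosome 6 (chr6:136801553-136804415). By class there are 6 H1, 18 H2a, 18 H2b, 12 H3 and 13 H4 genes. The members are dense. Their windows merged into 54 stretches, 26 genes shared a stretch with another, and all 12 head-to-head pairs joined an H2a to an H2b gene, with starts 176 to 306 bp apart.

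The promoter sequences that matter for the results below are printed here, taken from RefSeq (GRCm38.p6) as the 250 bases before the RefSeq start, 5′ to 3′. Capitals mark the CCAAT box, the TATAAA box, the octamer ATTTGCAT, known from H2B genes, and the box AAACACA, known from H1 genes, all read on either strand. Hist1h1c is shown because an H3K18la peak overlapped its window in every cell type, Hist1h4j and Hist1h4k because they had the mark in the dividing cultures and in no postmitotic sample, Hist1h2ba because no active mark was called there, and Hist2h2ac as the H2a side of a head-to-head pair of the Hist2 cluster.
Hist1h1c, chr13:23738557-23738806, plus strand: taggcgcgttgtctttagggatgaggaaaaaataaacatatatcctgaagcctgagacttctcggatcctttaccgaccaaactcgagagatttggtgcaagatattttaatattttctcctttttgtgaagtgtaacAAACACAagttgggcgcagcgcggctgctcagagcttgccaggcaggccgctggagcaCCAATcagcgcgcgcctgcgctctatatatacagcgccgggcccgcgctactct
Hist1h4j, chr13:21734784-21735033, plus strand: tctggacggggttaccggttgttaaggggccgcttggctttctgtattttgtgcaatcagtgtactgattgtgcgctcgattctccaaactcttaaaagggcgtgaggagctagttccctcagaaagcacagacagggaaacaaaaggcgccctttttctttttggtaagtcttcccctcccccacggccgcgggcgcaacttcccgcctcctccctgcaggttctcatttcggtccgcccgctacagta
Hist1h4k, chr13:21750554-21750803, minus strand: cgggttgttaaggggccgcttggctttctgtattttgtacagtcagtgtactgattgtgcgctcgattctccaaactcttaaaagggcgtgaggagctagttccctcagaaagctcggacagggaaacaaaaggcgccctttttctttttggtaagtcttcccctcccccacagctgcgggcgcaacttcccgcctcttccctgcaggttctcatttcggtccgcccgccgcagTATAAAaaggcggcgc
Hist1h2ba, chr13:23934157-23934406, minus strand: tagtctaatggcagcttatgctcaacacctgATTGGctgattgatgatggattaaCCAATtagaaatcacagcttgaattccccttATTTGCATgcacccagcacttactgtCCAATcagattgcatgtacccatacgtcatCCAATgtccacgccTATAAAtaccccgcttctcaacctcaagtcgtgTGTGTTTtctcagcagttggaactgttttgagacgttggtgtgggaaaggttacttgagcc
Hist2h2ac, chr3:96220881-96221130, minus strand: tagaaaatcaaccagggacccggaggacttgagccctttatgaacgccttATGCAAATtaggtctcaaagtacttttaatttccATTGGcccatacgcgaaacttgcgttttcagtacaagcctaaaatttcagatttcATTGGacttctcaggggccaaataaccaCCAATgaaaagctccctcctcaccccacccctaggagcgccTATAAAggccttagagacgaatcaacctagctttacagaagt

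Promoter sequences were found for 62 of the 67 genes. CCAAT stood in the 300-base promoter (250 bases before to 50 after the start) of all 6 H1, 18 H2a, 16 H2b and 10 H3 genes with a sequence, but in 3 of 12 H4 genes, against 38.2% of 21263 promoter sequences of protein-coding genes. TATAAA was held by 35 of the 62, or 56.5%, against 12.6%. ATTTGCAT was present in 7 H2a and 6 H2b promoters and in no H1, H3 or H4 promoter, against 1.66% of all promoters, and head-to-head pairs share much of the sequence searched. AAACACA stood in 5 of the 6 H1 promoters, against 6.15% of all. The letters of these motifs do not contain one another, and a match is a match of letters only.

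Sequence copies matter for reads in these windows. The windows of 49 members held at least 1 stretch of 150 bases that occurs elsewhere in the genome, and those of 18 members held none. In Hist1h2ao, Hist1h2ap, Hist1h2bq and Hist1h2br every such stretch was repeated. The 300-base promoters of Hist1h2bq and Hist1h2br were 100% identical, those of Hist1h4m and Hist1h4n 99.3% and those of Hist1h4j and Hist1h4k 91.7%, with a median of 50.7% over 1891 pairs. How reads with several equal alignments were placed is not stated in the sources used here, so calls at near-identical copies are uncertain as to which copy gave the reads.

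The labels were checked against marker genes. H3K18la was called at 5 of 5 stem cell markers in mESC-ser and in mESC-2i, at 3 of 7 muscle markers in MB, 7 of 7 in MT and 6 of 7 in GAS, at 5 of 5 macrophage markers in BMDM and PIM, and at 5 of 5 adipocyte markers in ADIPO. Stem cell markers had no H3K18la outside the stem cells, and macrophage markers had none outside the macrophages. Muscle markers were also called in ADIPO (2 of 7), and adipocyte markers in GAS (2 of 5), PIM (2 of 5) and MB (1 of 5). Of 5 genes of dividing cells, H3K18la was called at 3 in mESC-ser, 3 in mESC-2i, 1 in MB, 0 in MT, 0 in GAS, 2 in ADIPO, 0 in BMDM and 1 in PIM. Of the muscle markers Acta1, which encodes skeletal muscle actin, was called in the 3 postmitotic samples, ADIPO included, and in no other cell type. Cdk1, the mitotic kinase, was called in all 3 dividing cultures and in no other cell type. H3K4me3 was called at all 5 of these genes in each of its 4 lists.

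H3K18la covered most histone gene promoters in stem cells, myotubes and post-ischemia macrophages and a minority in muscle, fat and bone marrow-derived macrophages. It was called at 61 genes in mESC-ser (91.0%, interval 81.8 to 95.8), against 31.3% of all protein-coding promoters. In mESC-2i it was also called at 61 genes (91.0%), against 36.1% of all promoters, and 59 genes were called in both media. In MB it was called at 29 genes (43.3%, interval 32.1 to 55.2), which stands beside the lowest background of any H3K18la list, 9.29%. In MT 51 genes were called (76.1%, interval 64.7 to 84.7), against 32% of all promoters.

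GAS and ADIPO had the lowest counts, with intervals that overlap that of MB. In GAS 19 genes were called (28.4%, interval 18.97 to 40.1), and the background of 33.1% lies within that interval. In ADIPO 20 genes were called (29.9%, interval 20.2 to 41.7), below the 42.5% of all promoters. BMDM had 23 genes (34.3%, interval 24.1 to 46.3) against 15.9%, and PIM had 48 (71.6%, interval 59.9 to 81.0) against 34.5%. The histone genes were thus above their background in 6 of the 8 lists and at or below it in GAS and ADIPO.

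**Figure D1:**
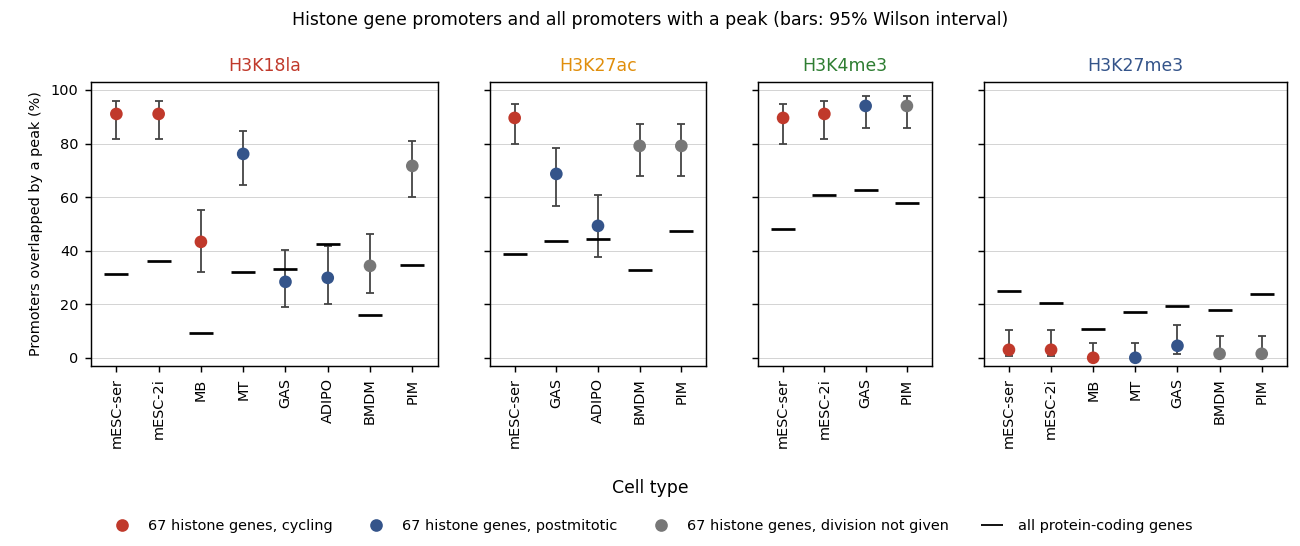
Percent of the 67 histone gene promoters overlapped by a peak in each list (points, coloured by division state, with 95% Wilson intervals) beside the percent of all 21755 protein-coding promoters (black bars). In the H3K18la panel the points fall to 28.4% in GAS and 29.9% in ADIPO, while the H3K4me3 points stay between 89.6% and 94.03%.

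Cycling against postmitotic cells was the comparison the design allows. The mean H3K18la share was 75.1% ± 27.6 (SD, n = 3 cell types) in the dividing cultures and 44.8% ± 27.2 (SD, n = 3) in the postmitotic samples, a difference of 30.3 percentage points. mESC-ser and mESC-2i, at 91.0% each, are the same E14 line in different media, so the 3 dividing values are not 3 independent cell types. The groups overlapped, since MB at 43.3% lay below MT at 76.1%. After the background of each list was taken off, the dividing cultures stood 49.6 ± 13.7 points above it and the postmitotic samples 8.91 ± 30.7 points, a difference of 40.7 points, with MT at 44.1 points above MB at 34.0 points. The difference is of the order of the spread between cell types and was given no test, because the genes were proposed with results known. Without MB the difference in shares was 46.3 points and without MT 46.0 points. It was 22.4 points with mESC-ser alone left out, 22.4 with mESC-2i alone left out, 22.1 without GAS and 22.9 without ADIPO. The stem cell lists were not left out together, and MB alone, at 43.3%, lay below the postmitotic mean of 44.8%. The dividing group also holds both whole-cell samples, so division state and processing cannot be told apart for the stem cells.

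List size and repeated sequence moved with this difference. With every H3K18la list reduced to the same number of called bases the difference was 19.9 points, or 19.03 points above background. Among the 18 genes without repeated stretches it was 13.0 points. Of these 18 genes 15 were called in each stem cell list (83.3%), 6 in MB (33.3%), 10 in MT (55.6%), 10 in GAS (55.6%) and 9 in ADIPO (50%). Of the 49 genes with repeats 46 were called in each stem cell list (93.9%), 23 in MB (46.9%), 41 in MT (83.7%), 9 in GAS (18.4%) and 11 in ADIPO (22.4%). All promoters stood at 33.1% in GAS and 42.5% in ADIPO, so the 18 genes lay above these shares and the 49 below. Repeats and position go together, since 1 of the 18 genes lies in the first Hist1 stretch, and their parts in the result were not tested. H3K4me3 in GAS was called at 48 of the 49 genes with repeats and at 15 of the 18 without.

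No promoter in the genome passed a test of its own. A two-sided Fisher exact test of 3 cycling against 3 postmitotic cell types, adjusted by Benjamini-Hochberg over 21755 promoters, called 0 promoters; the smallest unadjusted p the design allows is 0.1, and 0 promoters had an unadjusted p under 0.05. With the macrophages counted among the postmitotic samples 300 promoters had an unadjusted p under 0.05, the smallest being 0.0179, and again 0 passed after adjustment.

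Complete separation was therefore counted in each direction. H3K18la was present in all 3 dividing cultures and no postmitotic sample at 16 promoters of the genome, or 0.0735%, and 5 of them were histone genes: Hist1h1d, Hist1h2af, Hist1h4d, Hist1h4j and Hist1h4k. The opposite pattern held at 767 promoters, or 3.53%, and at 0 histone genes. MB calls 9.29% of all promoters, the lowest share of any H3K18la list, so the directions were not equally open. Apart from 3 germ-cell genes without H3K18la in any cell type, only Hist2h3c1 lacked it in every dividing culture, so few histone genes could show the opposite pattern. The 5 separated genes encode an H1, an H2A and 3 copies of the H4 protein. Hist1h4j was also called in PIM, and the other 4 in neither macrophage sample. In mESC-ser the call at Hist1h4j rests on the margin of its window. Measured from the first gene start of the first Hist1 stretch, that peak ended at 18.516 kb, short of the Hist1h4j start at 18.921 kb. The peaks in mESC-2i and MB spanned that start. The list of 5 separated genes is given for the main window and any overlap only, not for other windows or covered shares.

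Of these 5 genes, Hist1h1d depends on its annotated start. The GENCODE start lies 1770 bp from the RefSeq start. At the GENCODE start H3K18la was called in 3 cell types, mESC-ser, mESC-2i and MB, and at the RefSeq start in 6, with GAS, ADIPO and PIM added. H3K4me3 was called there in 1 list at the GENCODE start and in 3 at the RefSeq start. The separation therefore does not hold for Hist1h1d at the RefSeq start, and MT was called at neither.

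The remaining 4 carried H3K4me3 in GAS, where H3K18la was not called. Hist1h4d, Hist1h2af, Hist1h4j and Hist1h4k had H3K4me3 in all 4 lists. Hist1h4d had H3K27ac in all 5 lists, Hist1h2af in mESC-ser and GAS, Hist1h4j in mESC-ser and GAS, and Hist1h4k in mESC-ser alone. In ADIPO, where H3K27ac was the other active mark profiled, it was called at Hist1h4d and not at the other 3, and in MT no other active mark was profiled. H3K27me3 was called at Hist1h4j and Hist1h4k in GAS. The windows of Hist1h2af, Hist1h4j and Hist1h4k hold repeated stretches (17.1%, 9.15% and 10.2% of their 150-base stretches), and that of Hist1h4d none.

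Hist1h1c, which encodes a widely used H1 subtype, was the one histone gene with H3K18la in all 8 cell types, against 2.19% of all promoters (477). Ranked by maximum signal among the peaks of each list, its peak stood at percentile 61.6 in mESC-ser, 63.1 in mESC-2i, 12.5 in MB and 48.6 in MT. It stood at 76.6 in GAS, 78.5 in ADIPO, 73.2 in BMDM and 90.4 in PIM. Its peak thus lay above the middle of 6 of the 8 lists and below it in MB and MT. In mESC-ser and MB the peak covered only the margin of the window, 14.2% and 11.49% of its bases. Hist1h1c also had H3K27ac in 5 of 5 lists, H3K4me3 in 4 of 4 and H3K27me3 in 0 of 7, and no repeated stretch.

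H3K18la was called in no cell type at 3 histone genes, Hist1h1t, Hist1h2aa and Hist1h2ba, against 33.1% of all promoters. They are the testis-specific H1 gene and a head-to-head pair of germ-cell H2A and H2B genes whose shared promoter region is printed above. None of the 3 had H3K27ac or H3K4me3 in any list. Hist1h2aa and Hist1h2ba lay under a common H3K27me3 peak in mESC-ser (3705 bp wide, percentile 74.0 of maximum signal) and in mESC-2i (5417 bp, percentile 69.0), and in none of the other 5 H3K27me3 lists. Hist1h1t had no mark in any of the 24 lists. The nearest H3K18la peak to its start was 1548 bp away in mESC-ser and 1552 bp away in ADIPO. For Hist1h2ba it was 161044 bp away in mESC-ser and 847 bp away in MT.

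**Figure D2:**
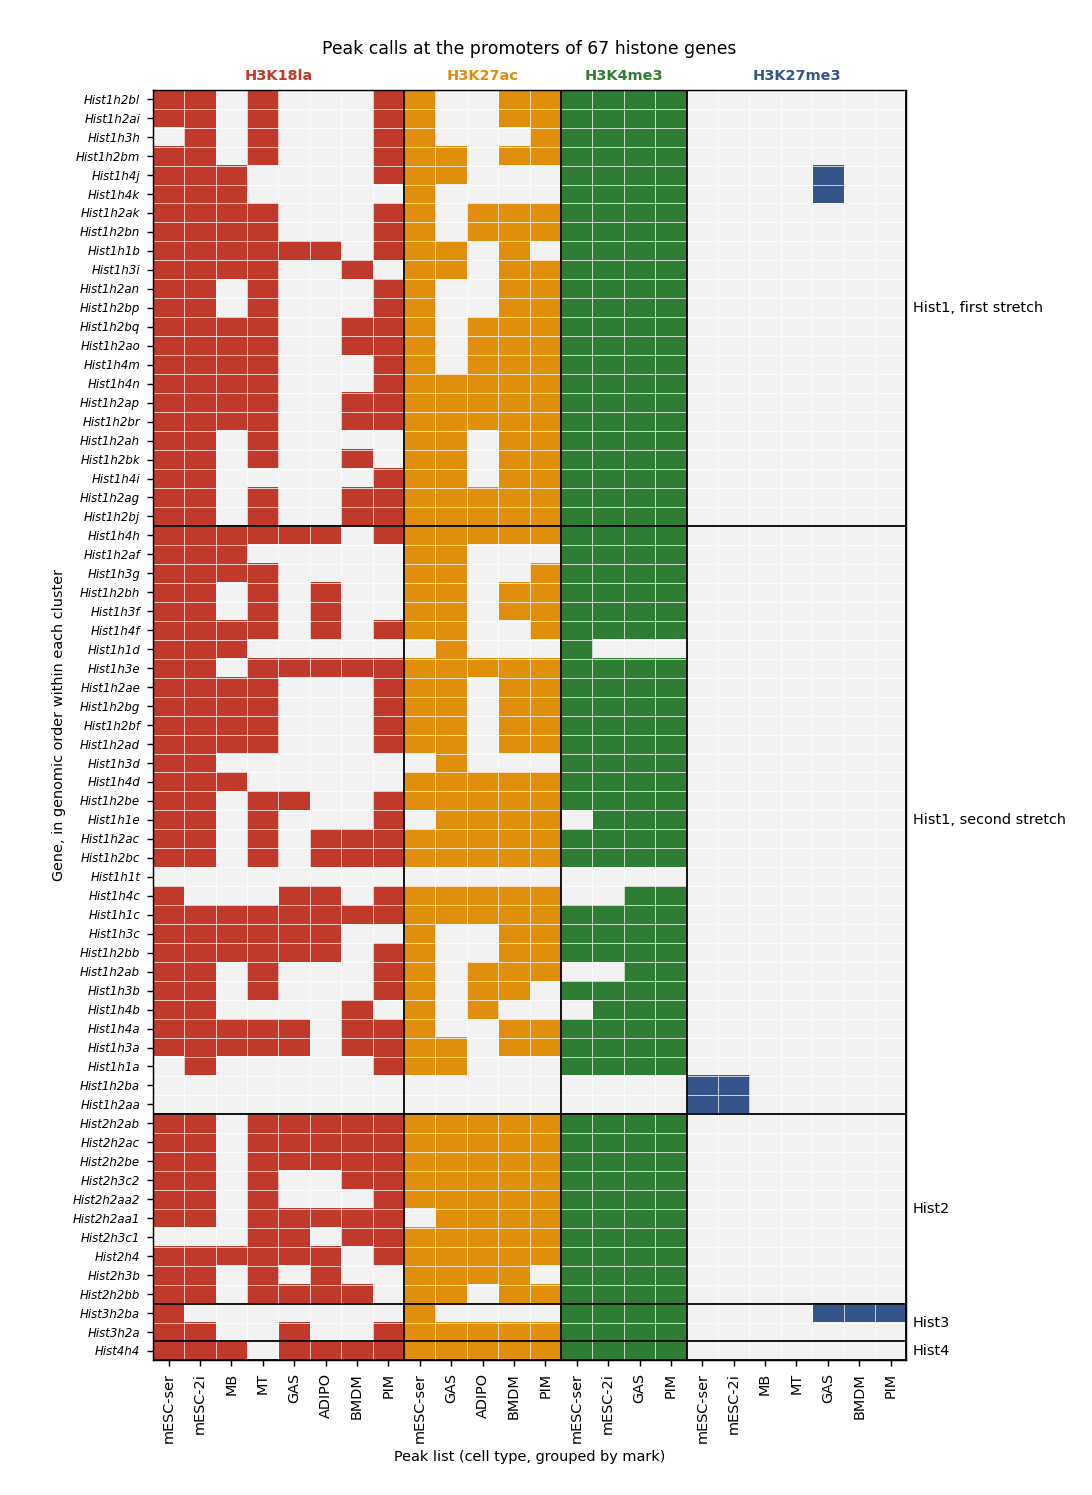
Peak calls at each of the 67 histone gene promoters (horizontal lines of cells, in genomic order) in each of the 24 lists (columns, grouped by mark); a coloured cell is a called promoter and grey is none. H3K4me3 fills nearly every position, H3K27me3 is called at 5 genes, and the GAS and ADIPO columns of H3K18la are almost empty in the first Hist1 stretch.

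H3K18la was unevenly spread over the clusters. In the first Hist1 stretch H3K18la was called at 22 of 23 genes in mESC-ser, 23 in mESC-2i, 12 in MB, 20 in MT and 19 in PIM, but at 1 in GAS, 1 in ADIPO and 8 in BMDM. In GAS and ADIPO that gene was Hist1h1b, an H1 gene without repeats in its window, which was called in 7 of 8 cell types and is named here after its values were seen. H3K4me3 was called at all 23 genes in each of its 4 lists, GAS included. H3K27ac was called at 23 genes in mESC-ser, 20 in BMDM, 20 in PIM, 12 in GAS and 10 in ADIPO. The shares in GAS (52.2%) and ADIPO (43.5%) stand near the 43.4% and 44.4% of all promoters. For mESC-ser, BMDM and PIM all promoters stood at 38.7%, 32.9% and 47.2%. H3K18la peaks covered 25.3% of the bases of the stretch in mESC-ser and 46.3% in mESC-2i, but 0.61% in GAS, where 4.67% of the genome was covered, and 1.59% in ADIPO, where 2.91% was.

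**Figure D3:**
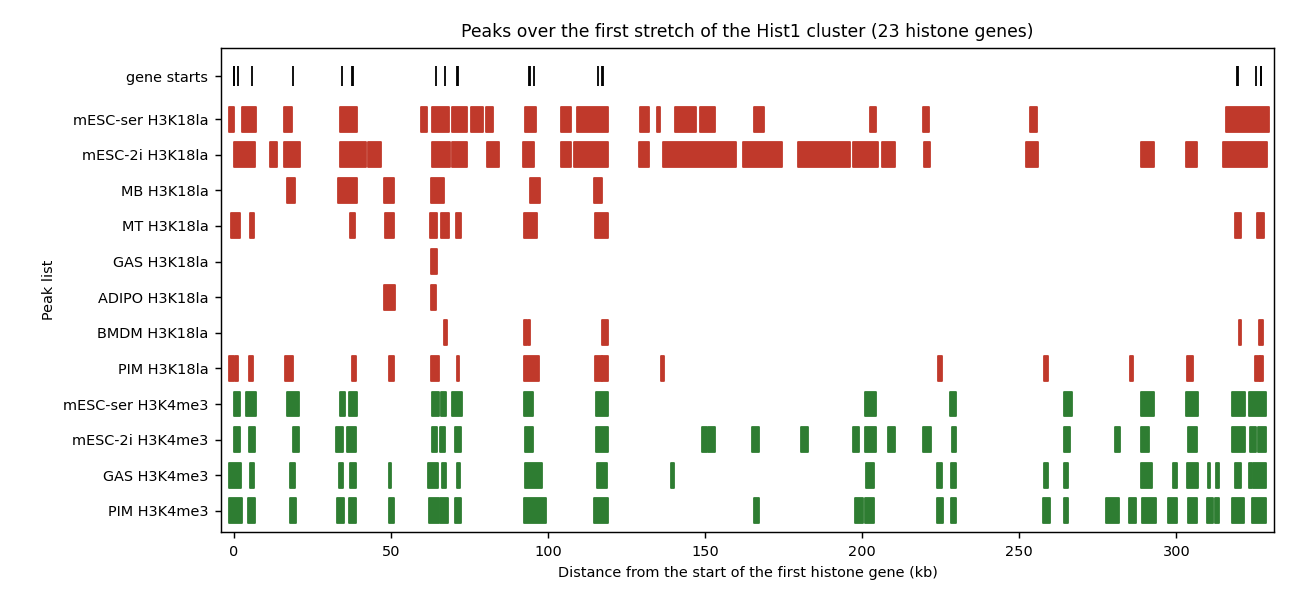
Peaks of H3K18la in 8 cell types (red) and of H3K4me3 in 4 (green) over the first Hist1 stretch, with gene starts as ticks at the top and distance in kb from the first gene start along the horizontal axis. H3K4me3 reaches the promoter window of all 23 genes in each of its 4 lists, though not every start itself, while the H3K18la lists of GAS and ADIPO reach 1 of the 23 genes each.

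The second Hist1 stretch holds 31 genes. H3K18la was called at 27 genes in each stem cell list, 15 in MB, 21 in MT, 9 in GAS (29.0%, against 33.1% of all promoters), 11 in ADIPO (35.5%, against 42.5%), 7 in BMDM and 19 in PIM. H3K4me3 was called at 24 genes in mESC-ser, 25 in mESC-2i, 27 in GAS and 27 in PIM. H3K27ac was called at 25 genes in mESC-ser, 22 in GAS, 12 in ADIPO, 21 in BMDM and 22 in PIM. In ADIPO this is 38.7%, below the 44.4% of all promoters, and in GAS 71.0% against 43.4%. In mESC-ser it is 80.6% against 38.7%, in BMDM 67.7% against 32.9% and in PIM 71.0% against 47.2%.

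In the Hist2 cluster more genes were called in GAS and ADIPO than in MB, unlike in the Hist1 stretches. Of its 10 genes H3K18la was called at 9 in each stem cell list, 10 in MT, 7 in GAS, 7 in ADIPO, 7 in BMDM and 8 in PIM, and at 1 in MB, Hist2h4. The share in MB (10%) is near the 9.29% of all promoters called there. The 70% in GAS, ADIPO and BMDM stands against 33.1%, 42.5% and 15.9% of all promoters. The H2a genes Hist2h2ab and Hist2h2ac and the H2b gene Hist2h2be were called in every cell type except MB, as was Hist2h2aa1. Hist2h4, an H4 gene, was called in every cell type except BMDM. Hist2h2bb lacked the mark in MB and PIM only. Hist2h3c2 was called in 5 cell types, Hist2h2aa2, Hist2h3b and Hist2h3c1 in 4 each, and Hist2h3c1 was the only gene of the cluster without H3K18la in either stem cell list. H3K4me3 was called at all 10 genes in all 4 lists, and H3K27me3 at 0 genes in all 7. Hist2h3c1 and Hist2h3c2, with 94.7% identical promoters, and Hist2h2aa1 and Hist2h2aa2, with 85.7%, are near copies.

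The small clusters were mixed. Hist4h4, a lone H4 gene, had H3K18la in 7 cell types and lacked it in MT. Hist3h2a was called in mESC-ser, mESC-2i, GAS and PIM. Hist3h2ba, the H2b gene of the same cluster, was called in mESC-ser alone and is described after its values were seen. H3K27me3 was called at Hist3h2ba in GAS, BMDM and PIM, at percentiles 28.2, 43.2 and 82.6 of maximum signal. Its window also had H3K4me3 in all 4 lists, so H3K4me3 and H3K27me3 were called together there in GAS and PIM.

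In MB the H4 genes had the largest share of calls. H3K18la was called there at 10 of 13 H4 genes, but at 6 of 18 H2a, 6 of 18 H2b, 4 of 12 H3 and 3 of 6 H1 genes. In MT 6 of 13 H4 and 3 of 6 H1 genes were called, beside 15 of 18 H2a, 16 of 18 H2b and 11 of 12 H3 genes. Of the 6 genes called in MB and not in MT (8.96% of the 67, against 0.809% of all promoters), 4 were H4 genes. The 28 genes called in MT and not in MB (41.8% against 23.5%) were 10 H2a, 10 H2b, 7 H3 and 1 H1. The other 23 of the genes called in MB were called in both (34.3% against 8.49%). The classes were looked at after the values were seen and were given no test.

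The classes in the other cell types were as follows. In mESC-ser the mark was called at 4 of 6 H1, 17 of 18 H2a, 17 of 18 H2b, 10 of 12 H3 and 13 of 13 H4 genes, and in mESC-2i at 5, 17, 16, 11 and 12 in the same order. In GAS it was called at 2 H1, 4 H2a, 4 H2b, 4 H3 and 5 H4 genes, and in ADIPO at 2, 4, 5, 4 and 5 in the same order. These are 22.2% to 38.5% of each class in both tissues, on either side of the 33.1% of all promoters in GAS and below the 42.5% in ADIPO. In PIM it was called at 4 H1, 15 H2a, 13 H2b, 6 H3 and 10 H4 genes, and in BMDM at 1, 7, 7, 5 and 3. All promoters stood at 34.5% in PIM and 15.9% in BMDM, where H1 (16.7%) and H4 (23.1%) lay nearest to it. Of the 12 head-to-head H2a and H2b pairs, 11 had the same H3K18la calls at both genes in all 8 cell types, since a common peak usually spanned both starts.

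**Figure D4:**
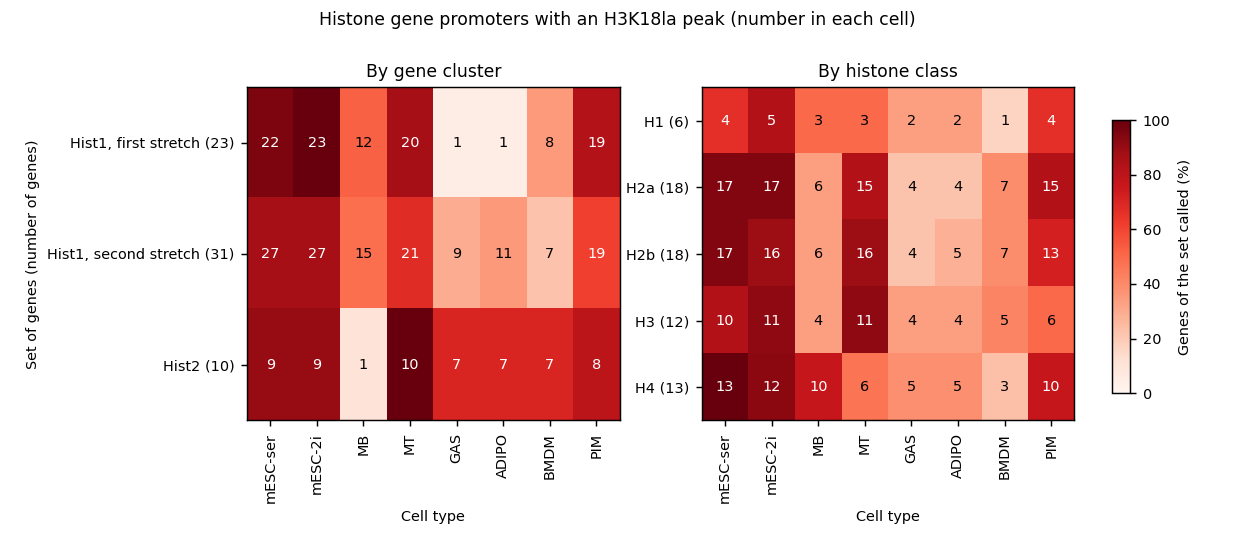
Number of genes with an H3K18la peak in each cell type, by gene cluster (left) and by histone class (right), with colour giving the percent of the set. The first Hist1 stretch drops to 1 gene in GAS and in ADIPO, and H4 is the most covered class in MB with 10 of 13 genes. Hist2 has 1 gene in MB (10%), near the 9.29% of all promoters called there.

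Lists were also compared in pairs, beside the same counts over all promoters. Of the 51 genes called in MT, 16 were also called in GAS (23.9% of the 67, against 22.3% of all promoters) and 35 were not (52.2% against 9.71%), 19 of the latter in the first Hist1 stretch. The 3 genes called in GAS and not MT (4.48% against 10.8%) were Hist1h4c, Hist3h2a and Hist4h4. The GAS and ADIPO lists shared 14 genes, which is 14 of 19 in GAS and 14 of 20 in ADIPO (20.9% of the 67, against 24.3% of all promoters). GAS alone had 5 (7.46% against 8.81%) and ADIPO alone 6 (8.96% against 18.2%). Between the macrophages 19 genes were shared (28.4% against 14.6%), 29 were called in PIM only (43.3% against 19.9%) and 4 in BMDM only (5.97% against 1.31%). At 28 genes H3K18la was called in both stem cell lists and MT and in neither GAS nor ADIPO (41.8%), against 1.32% of all promoters. The median histone gene had H3K18la in 5 of 8 cell types.

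H3K4me3 varied less than H3K18la. It was called at 60 histone genes in mESC-ser (89.6%), against 47.9% of all promoters, at 61 in mESC-2i (91.0%), against 60.6%, at 63 in GAS (94.03%), against 62.5%, and at 63 in PIM (94.03%), against 58%. All 4 lists had it at 59 genes (88.1%), against 41.6% of all promoters. Only the 3 germ-cell genes lacked it throughout.

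H3K27ac lay between these marks. It was called at 60 genes in mESC-ser (89.6%), against 38.7%, 46 in GAS (68.7%), against 43.4%, 33 in ADIPO (49.3%), against 44.4%, 53 in BMDM (79.1%), against 32.9%, and 53 in PIM (79.1%), against 47.2%. In ADIPO the background lay within the interval of 37.7 to 60.9. As with H3K18la, GAS and ADIPO lay below mESC-ser.

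H3K27me3 was nearly absent from the promoters of the family. It was called at 2 genes in mESC-ser (2.99%), against 24.8%, 2 in mESC-2i (2.99%), against 20.5%, 0 in MB, against 10.6%, 0 in MT, against 16.9%, 3 in GAS (4.48%), against 19.3%, 1 in BMDM (1.49%), against 17.9%, and 1 in PIM (1.49%), against 23.9%. A count of 0 of 67 allows a share of up to 4.48% by the limit of 3 counts, and the upper Wilson bound is 5.42%. Over all 7 lists 62 genes (92.5%) never had the mark, against 58.8% of all promoters. The 5 that did were Hist1h2aa, Hist1h2ba, Hist1h4j, Hist1h4k and Hist3h2ba. Outside the promoter windows the clusters did hold the mark in some lists. Its peaks covered 18.4% of the first Hist1 stretch in GAS (genome 5.24%) and 0% in mESC-2i (genome 5.51%). They covered 20.8% of the second stretch in MT (genome 6.56%) and 0% in BMDM and PIM. The cycling mean was 1.99% ± 1.72 (SD, n = 3) and the postmitotic mean, of MT and GAS, 2.24% ± 3.17 (SD, n = 2), a difference of -0.25 points that is far within the spread.

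Where all 4 marks were profiled, the usual combination changed with the cell type. In mESC-ser 54 genes (80.6%) had H3K18la, H3K27ac and H3K4me3 together, against 19.3% of all promoters. In GAS 16 genes (23.9%) had this combination, against 25.0%, whereas 28 (41.8%) had H3K27ac and H3K4me3 without H3K18la, against 14.01%, and 13 (19.4%) had H3K4me3 alone, against 11.2%. In PIM 44 genes (65.7%) had all 3 active marks, against 28.03%. Among genes with H3K4me3, H3K18la was called at 57 of 60 in mESC-ser (95%, interval 86.3 to 98.3; all promoters with H3K4me3 55.1%) and at 19 of 63 in GAS (30.2%, interval 20.2 to 42.4; all promoters 50.2%). It was called at 48 of 63 in PIM (76.2%, interval 64.4 to 85.01; all promoters 57.6%). Among genes with H3K27ac in ADIPO, 13 of 33 had H3K18la (39.4%, interval 24.7 to 56.3), against 84.6% of all such promoters.

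Base composition was compared as well, because H3K18la lists hold many CpG-rich promoters. The windows of the histone genes had a median GC content of 53.7% and a median observed over expected CpG ratio of 0.88, against 54.8% and 0.56 for all protein-coding genes. Windows with at least 50% GC and a ratio of at least 0.6 made up 49 of the 67 (73.1%), against 44.8% of all. Within these CpG-rich windows H3K18la was called at 89.8% of histone genes against 43.5% of all promoters in mESC-ser, and at 83.7% against 46.7% in MT. In GAS it was called at 26.5% against 45.2%, and in ADIPO at 24.5% against 63.0%. In the windows outside this class, 18 of them histone genes, the order in these tissues was reversed, with 33.3% against 23.3% in GAS and 44.4% against 25.9% in ADIPO. H3K4me3 in GAS was called at 95.9% against 94.3% and in mESC-2i at 95.9% against 95.4% in the same windows, while mESC-ser had 93.9% against 80.2% and PIM 95.9% against 88.0%. H3K27ac in these windows was called at 67.3% against 64.9% in GAS and at 53.1% against 70.1% in ADIPO, so the order seen over all windows was reversed in ADIPO. In mESC-ser it was called at 91.8% against 62.7%, in BMDM at 81.6% against 53.5% and in PIM at 83.7% against 75.5%.

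The peaks over histone genes were ranked by their maximum signal within their own list, because signal is not scaled for depth. The lists differ in length (13551 to 36823 peaks for H3K18la), so a percentile places a peak in its own list and is not compared between lists. The 25 H3K18la peaks over members in mESC-ser had a median percentile of 76.8 and the 25 in mESC-2i of 56.6. In MB the 15 peaks had a median percentile of 5.58, with 1 above the middle of the list. The medians were 31.4 in MT (27 peaks), 55.5 in GAS (14), 24.6 in ADIPO (14), 33.2 in BMDM (15) and 59.9 in PIM (31). For H3K4me3 the medians were 41.5 in mESC-ser, 35.1 in mESC-2i, 78.4 in GAS and 78.5 in PIM.

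Rank also set how many histone genes were reached by the strongest peaks. Among the 5000 peaks of largest total signal (coverage summed over the peak) in each list, H3K18la was called at 59.7% of histone genes in mESC-ser and 50.7% in mESC-2i, against 11.45% and 13.2% of all promoters. It was called at 14.9% in MB against 3.83%, at 7.46% in BMDM against 3.89%, and at 5.97% in PIM against 7.09%. In ADIPO it was called at 1.49% against 8.42%, and at 0% in MT against 5.80% and in GAS against 7.65%. The high share in MT therefore came from peaks outside its 5000 strongest.

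Peaks often spanned several genes. The widest H3K18la peak over members was 25479 bp in mESC-ser, and up to 7 members shared a peak there, against up to 4 in MT and up to 3 in GAS. The median width of peaks over members was 4445 bp in mESC-ser, where all peaks had a median of 3183 bp, and 732 bp in BMDM, where the median was 916 bp. Of the called members the whole window was covered at 51 of 61 in mESC-ser, 47 of 51 in MT, 13 of 19 in GAS and 4 of 23 in BMDM.

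**Figure D5:**
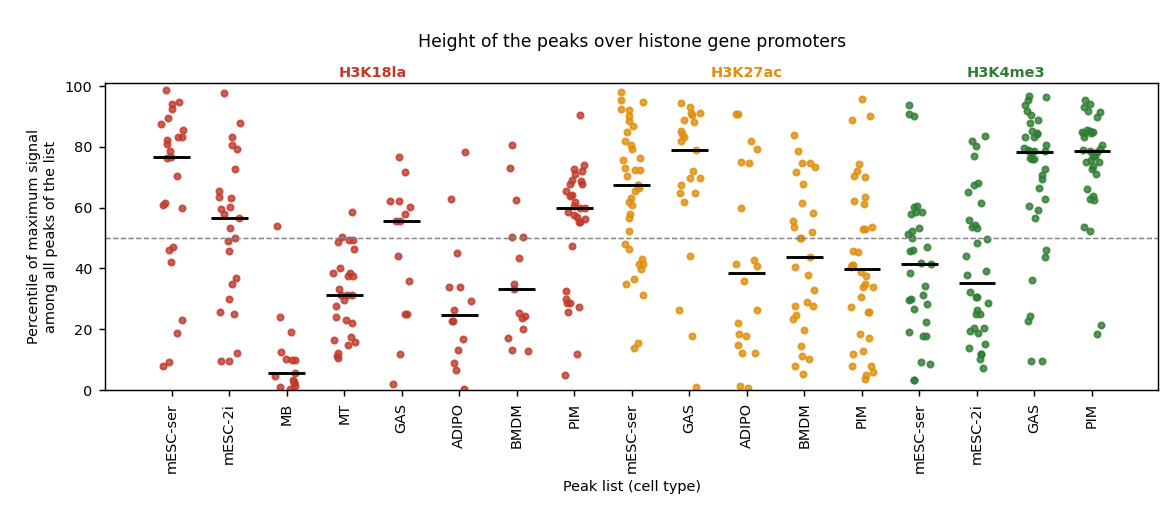
Maximum signal of each peak over a histone gene promoter as a percentile among all peaks of its own list (points; black bars are medians, the dashed line is the 50th percentile), by list and mark. The H3K18la medians of MB and mESC-ser are 5.58 and 76.8, and the H3K4me3 medians of GAS and PIM are 78.4 and 78.5. Each places the peaks in their own list and is not compared between lists.

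Other genes of histone supply were counted in the same lists, and their numbers are to be read against the shares of all promoters given above. Of 12 replication-independent histone genes H3K18la was called at 10 in each stem cell list, 0 in MB, 3 in MT, 4 in GAS, 8 in ADIPO, 3 in BMDM and 6 in PIM. H1foo, an oocyte linker histone, was called in all 3 postmitotic and no dividing cell types. Of 13 factors of histone gene expression, among them NPAT and the stem-loop binding protein, H3K18la was called at 6 in mESC-ser, 7 in mESC-2i, 0 in MB, 4 in MT, 5 in GAS, 6 in ADIPO, 1 in BMDM and 7 in PIM. In MT, GAS and ADIPO these factors (30.8%, 38.5% and 46.2%) were near the shares of all promoters, and no list of genes was tested. Zfp473, which takes part in processing histone transcripts, was called in the 3 postmitotic samples only. Of 13 histone chaperones the numbers in the same order were 7, 9, 0, 6, 4, 8, 4 and 6, and Asf1b, a chaperone of H3 and H4, was called in the 3 postmitotic samples only.

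Genes of DNA replication, which are used in the same phase of the cycle, were compared last. Of 18 such genes H3K18la was called at 11 in mESC-ser, 12 in mESC-2i, 5 in MB, 8 in MT, 7 in GAS, 15 in ADIPO, 4 in BMDM and 10 in PIM. In ADIPO these 15 of 18 stand beside 20 of 67 histone genes. H3K4me3 was called at 14 of the 18 in mESC-ser and at 18 in each of mESC-2i, GAS and PIM, and H3K27me3 at 0 in all 7 lists. None of the replication genes was separated between dividing and postmitotic samples in either direction.

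The genes that lie between histone genes were counted in the same way. The clusters enclose 10 other protein-coding genes, including sodium-phosphate transporters of the Slc17 family, of which H3K18la was called at 1 in mESC-ser, 2 in mESC-2i, 1 in MB, 1 in MT, 3 in GAS, 2 in ADIPO, 0 in BMDM and 2 in PIM, against 9.29% (MB) to 42.5% (ADIPO) of all promoters, with GAS and MB near their shares. H3K27me3 was called at 3 of them in mESC-ser, 1 in mESC-2i, 2 in MB, 5 in MT, 4 in GAS, 2 in BMDM and 3 in PIM, against 10.6% to 24.8% of all promoters. In mESC-ser 1 of these 10 genes thus stands beside 61 of the 67 histone genes.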

How the data were processed

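CUT&Tag reads were, per the paper's methods, trimmed with Trim Galore 0.6.6, aligned end to end to mm10 with Bowtie2 2.4.4, sorted with SAMtools 1.13 and turned into fragment coverage with bedtools 2.30 by the authors, who merged the coverage of replicates and called peaks with SEACR 1.3 in stringent mode (the top 1% of regions). The deposited lists give each peak's total signal and maximum signal, which are whole-number coverage and not scaled for depth, so signal was only ranked within a list. Read depth per sample was not analysed here, and 0 columns of per-sample values were left without a sample. The handling of duplicate and multiply aligned reads is not given in the sources used here. Stem cell lists named without a medium were taken as serum.

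Peaks and GENCODE M21 starts on chromosomes 1 to 19 and X were overlapped with Python 3.11.15, numpy 2.4.6, pandas 2.3.3 and scipy 1.17.1, and promoters were compared with Biopython 1.88. Overlaps were checked on simulated peaks with bedtools 2.31.1. The histone genes, gene lists, motifs and tests were chosen with earlier results of these data known. Genes were named where H3K18la was called in every or no cell type, or separated dividing from postmitotic samples, where H3K27me3 was called in most lists, for germ-cell genes, and for the Hist2, Hist3 and Hist4 clusters (12 with most marks). Genes of other lists were named where separated. Alternatives were other windows (250 and 2000 bp), a covered share of 0.5, the 5000 peaks of largest signal, equal called bases, merged windows, 1 start per gene, other memberships of the groups, and each cell type left out. Counts without repeated members and at RefSeq starts were chosen after seeing the data.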

Additional observations from a re-analysis of the deposited data

Results flagged for a closer look

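Some pseudogenes of the family, which are not protein-coding and so were outside all counts, had peaks at their annotated starts. Each value is the number of the 24 lists with a call. Lists of the active marks call 9.29% to 62.5% of all protein-coding promoters, so these counts are given as values and not as a signal above background. Hist3h2bb-ps was called in 13 lists (H3K18la in 4, H3K27ac in 5, H3K4me3 in 4), and its start lies 173 bp from that of Hist3h2a. Hist1h2aj was called in 12 lists (4 for each active mark), 236 bp from the start of Hist1h2bm. At these distances a peak of the neighbour reaches the pseudogene window, and the calls cannot be told apart. Hist1h2al was called in 4 lists (H3K18la in 2, H3K27me3 in 2) and lies 27268603 bp from the nearest histone gene of the rule.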

How the results depend on the processing

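The H3K18la difference between dividing and postmitotic cell types kept its direction in every alternative run, and moved by less than 1 SD over cell types in each, from 13.0 to 46.3 points (22.1 to 46.3 with a cell type left out). No run left out both stem cell lists, after which only MB would stand for the dividing cultures. The difference above background ran from 19.03 to 58.3 points (29.9 to 58.3 with a cell type left out). The H3K27me3 difference of -0.25 points changed sign to 1.00 with equal called bases, 0.93 without repeated members and 0.12 with macrophages counted as postmitotic, and ran from -2.49 to 1.99 with a cell type left out; it rests on 0 to 3 genes a list. The 1 gene with H3K18la in every cell type became 0 with the 250-bp window, with 0.5 of the window covered, with 5000 peaks and with equal called bases, and 1 to 6 genes with a cell type left out, 6 without MB and 5 without BMDM. The per-promoter test, which cannot pass its threshold in this design, called 0 promoters in each of its alternatives and says nothing of stability. Shares per list fell beyond their interval in 21 of 24 lists with 5000 peaks and rose beyond it in 5 with the 2000-bp window. The cause was not tested. No paired analysis was possible because the numbered samples of a group were merged into 1 peak list, which carries no replicate number. Read depth was not used here, and no list has a replicate error.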
